A study of Mus musculus with 4 samples.

Results

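Lung cells from mice that carried Asf1a-knockout tumours were compared with lung cells from mice that carried wild-type tumours, both under a control antibody. The tumour cells came from the KP mouse lung cancer model, were either wild type (KP-WT) or knocked out for Asf1a (KP-Asf1a KO), and were injected into a vein of B6 mice. In the pair described here the mice then received an isotype IgG for 1 week; these libraries are called WT IgG and KO IgG. A second pair of libraries, with the same tumour genotypes, came from mice given the PD-1 antibody 29F.1A12 at 200 µg per mouse, 3 times per week for 1 week. Per the labels the knockout was in the injected tumour cells, so immune and other host cells carried no Asf1a edit in any library. Lungs were digested whole with collagenase D, live cells were sorted with DAPI, and each suspension was run as a 10x Genomics 3′ v2 droplet library. Members were all cells with at least 200 detected genes and at most 10% of unique molecular identifiers (UMIs) on mitochondrial genes: 6023 in KO IgG and 5745 in WT IgG, together 11768 of 23730 such cells in the 4 libraries. Each side is 1 library, the labels do not say how many mice went into it, and so no difference below has a replicate check or a test.

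Asf1a is a histone chaperone that passes H3-H4 histone dimers on to the CAF-1 and HIRA complexes, which build nucleosomes behind replication forks and on active genes; Asf1b is its paralog. Interferon-gamma is made mainly by activated T cells and natural killer (NK) cells. In the cells it reaches it turns on transcription factors such as Irf1, guanylate-binding proteins, the chemokines Cxcl9 and Cxcl10, immunoproteasome subunits and MHC class I. In lungs with tumours, neutrophils and recruited monocytes are usually abundant, and their granule, chitinase-like and complement genes mark different stages of maturation.

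Values are ratios of KO IgG to WT IgG in CPM, the summed UMIs of a gene scaled to 1000000 UMIs of its cell class, with an exact 95% interval that covers counting error only. The ratio in the anti-PD-1 pair stands beside them as a separate measurement that shares no library with the IgG pair. Both pairs used the same tumour lines. A difference between the lines other than the Asf1a edit therefore cannot be told apart from the edit in either pair. A list median in that pair is over the members measured in both. Doublet removal took 86 cells from WT IgG and 104 from KO IgG and left 5659 and 5919, and the cells of the 4 libraries fell into 26 clusters. KO IgG was the shallower library, with a median of 1220 UMIs per cell against 2026 in WT IgG; the anti-PD-1 libraries had 1339 (KO) and 1881 (WT). In neutrophils the medians were 892.5 and 1258 UMIs, and 66.0% of KO IgG neutrophils had under 1000 UMIs against 21.0% in WT IgG. RNA of other cell types inside a class, from free RNA or unseen doublets, also differed. Summed haemoglobin and other erythroid markers in neutrophils stood at 14.8 CPM in WT IgG and 336 CPM in KO IgG, and summed lung epithelial markers in the same cells at 139 and 37.9 CPM. The part of depth and of foreign RNA in the results below was not tested, except where a value is given.

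Asf1a itself was lower in the tumour class of KO IgG and in none of the immune classes. Tumour cells held 61 and 27 UMIs of Asf1a in WT IgG and KO IgG, or 34.6 CPM in WT IgG and 9.68 CPM in KO IgG, a ratio of 0.28 (0.171 to 0.447), and 0.257 in the anti-PD-1 pair. In T cells, which are host cells, the ratio was 1.14 (0.847 to 1.53) from 154 and 68 UMIs, and in neutrophils it was 1.13 (0.626 to 2.07). Over the other immune classes it lay between 0.86 in migratory dendritic cells (DCs) and 1.36 in monocytes and macrophages, with intervals that held 1, except in plasma cells, where it was 3.12 (1.59 to 6.33) from 15 and 26 UMIs. Plasmacytoid DCs and rarer classes had too few UMIs to read. Where the guide cuts is not stated in the labels, and a 3′ library still counts transcripts of an edited gene, so remaining UMIs do not measure remaining protein. Asf1b was higher in the tumour class, at 8 and 31 UMIs and a ratio of 2.45 (1.1 to 6.16), with 3.4 in the anti-PD-1 pair.

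Tumour cells, neutrophils and conventional DCs made up more of KO IgG than of WT IgG, and T, B and plasma cells less. Tumour cells numbered 101 of 5659 in WT IgG (1.78%) and 210 of 5919 in KO IgG (3.55%), a ratio of 1.99 (1.56 to 2.55), and 1.36 (1.03 to 1.78) in the anti-PD-1 pair. Neutrophils made up 33.1% and 46.6%, a ratio of 1.41 (1.33 to 1.49), with 1.40 in the anti-PD-1 pair. Because shares of one library depend on each other, the immune classes were also counted without neutrophils. On that base T cells kept a ratio of 0.738 (0.682 to 0.799), at 45.9% and 33.9%. Monocytes and macrophages stood at 1.49 (1.35 to 1.65), conventional DCs at 1.75 (1.44 to 2.14) and NK cells at 1.25 (1.06 to 1.48). The anti-PD-1 pair gave 0.728, 1.47, 1.75 and 1.46 for these classes. B cells had 0.742 (0.630 to 0.872) on that base, and 0.371 in the anti-PD-1 pair. Plasma cells were 2.60% and 1.71% of all cells, a ratio of 0.657 (0.505 to 0.852). Without neutrophils their ratio was 0.860 (0.661 to 1.12), which counting error does not set apart from 1, and 0.979 in the anti-PD-1 pair.

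Non-classical monocytes were a smaller part of their class in KO IgG. These vessel-patrolling monocytes formed 1 of the monocyte-macrophage clusters, which held 84 WT IgG cells and 49 KO IgG cells. They were 11.5% and 5.61% of monocytes and macrophages, a ratio of 0.489 (0.337 to 0.704), and 0.638 in the anti-PD-1 pair. Migratory DCs, which carry antigen to lymph nodes, were 2.42% and 1.81% of all cells, a ratio of 0.747 (0.574 to 0.969), while the anti-PD-1 pair had 1.09. Of immune cells other than neutrophils they were 3.76% and 3.67%, a ratio of 0.978 (0.752 to 1.27), and 1.32 in the anti-PD-1 pair. All these shares are of live cells sorted with DAPI and with at least 500 UMIs, the lowest count in the deposited matrices, so cells of low RNA content are under-counted. With a limit of 500 detected genes the neutrophil ratio turned to 0.820 and that of NK cells to 1.28, next to the lower depth of KO IgG neutrophils given above, while tumour and T cell ratios kept their side of 1. When WT IgG was thinned to 73.1% of its UMIs, the mean depth of KO IgG, 9 of 9 class ratios stayed inside their main intervals. Thinned cells kept their class, and 147 of 5659, 54 of them neutrophils, fell under 500 UMIs and were dropped. This setting could therefore hardly move a share and does not settle the part of depth.

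**Figure D1:**
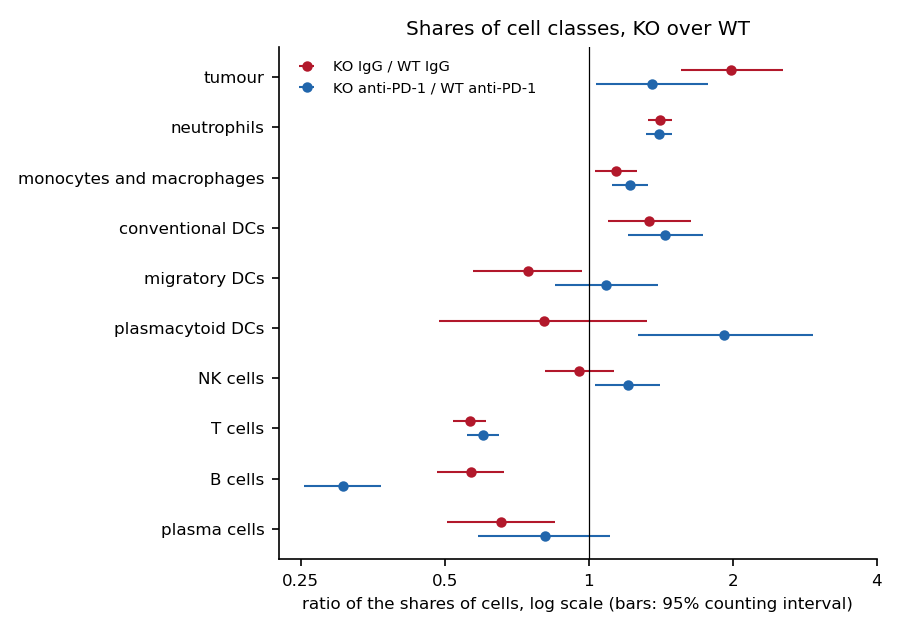
Ratio of the share of all cells in KO to that in WT (log axis) for 10 cell classes, in the IgG pair (red) and the anti-PD-1 pair (blue), with 95% intervals for counting error as bars and a line at 1. Tumour cells (1.99), neutrophils (1.41) and conventional DCs (1.34) lie right of the line and T cells (0.564) and B cells (0.567) left of it, on the same side in both pairs.

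The tumour class was named with the tumour epithelial markers, so their presence in it is no separate check of identity. Of 10 tumour epithelial markers, 8 had a UMI in both libraries, and Krt8, a keratin of simple epithelia, was abundant at 6108 and 8359 UMIs (ratio 0.865). Epcam had only 1 and 2 UMIs and Nkx2-1, the lung lineage factor, was not detected. The class split into 6 sub-clusters that were mixed differently in the libraries. Sub-cluster 0, led by the gut-type genes Lypd8, Tm4sf4, Phgr1 and Lgals4, held 18 WT IgG cells and 1 KO IgG cell; the anti-PD-1 libraries had 17 (WT) and 13 (KO). Sub-cluster 7, led by Try5 and Akr1c18, held 14 and 82 cells, and sub-cluster 10, led by the mitosis genes Ube2c and Top2a, 5 and 46. These counts describe the mix only, because the genes that define the sub-clusters are among those that differ. Sub-clusters 1 and 5 were shallow, with WT IgG medians of 3341.5 and 2487 UMIs per cell against 13714.5 in sub-cluster 7. In WT IgG 5.56% and 29.4% of their cells had a UMI of 4 Y-linked genes, against 71.4% to 100% in the other sub-clusters. Such a percentage also falls with depth. In CPM the 4 genes summed to 16.3 in sub-cluster 1 but 106 in sub-cluster 5, against 108 to 233 in the others. Xist had 3 UMIs in sub-cluster 5 of WT IgG and 0 in the other sub-clusters. Sub-cluster 5 had 0 and 2 UMIs of Asf1a in WT IgG and KO IgG. Whether these 2 sub-clusters hold cells other than tumour cells was not tested.

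In tumour cells 594 of 9373 measured genes were at least 2-fold higher in KO IgG (6.34%) and 588 at least 2-fold lower (6.27%), the largest shares of the 9 classes compared. Of the 594 higher genes 438 were measured in the anti-PD-1 pair and 313 of them were above a ratio of 1 there; 101 were at least 2-fold higher (23.1%, against 4.05% of all genes measured in that pair). Of the 588 lower genes 501 were measured, 345 lay below 1 and 118 were at least 2-fold lower (23.6%, against 6.56% of all genes). Same-side shares were 71.5% of the higher and 68.9% of the lower genes, and are to be read beside the 42.1% of all genes that lay above 1 in that pair.

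The genes most clearly higher in KO IgG tumour cells included the calcium-binding, motility-linked S100a4 and the endosomal tetraspanin Cd63. S100a4 stood at 371 CPM in WT IgG and 2711 CPM in KO IgG, a ratio of 7.31 (6.74 to 7.92), and 4.37 in the anti-PD-1 pair. It was higher in 5 of 5 sub-clusters with at least 5 cells on each side, with ratios from 1.51 to 8.51. Cd63 stood at 146 CPM in WT IgG and 601 CPM in KO IgG, a ratio of 4.12 (3.61 to 4.72), with 3.86 in the anti-PD-1 pair and 2.19 to 8.26 over the same 5 sub-clusters. Both genes were therefore higher in each of these 5 sub-clusters, 1 and 5 of which were shallow as given above. Sub-cluster 0, with 1 KO IgG cell, was not read. The steroid-metabolising Akr1c18 had 3 and 207 UMIs, a ratio of 43.6 (14.7 to 213), and 65.4 in the second pair. Inhba, which encodes the activin A subunit, had 28 and 263 UMIs (ratio 5.93 (4.01 to 9.1); second pair 1.88) and was higher in 3 of 3 sub-clusters where it could be measured, from 1.44 to 26.9. Gpx8, an endoplasmic reticulum peroxidase, had 11 and 130 UMIs, a ratio of 7.47, and 2.31 in the second pair. Without sub-clusters 0, 7 and 10 neither was past 2-fold, at log2 ratios of 0.35 for Inhba and 0.39 for Gpx8. That setting, used again below, was chosen after seeing the data. It keeps only sub-clusters 1, 5 and 6.

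Several genes higher in KO IgG had few or no UMIs in WT IgG. Tnc, the matrix glycoprotein tenascin C, had 0 and 43 UMIs, at least 9.06-fold higher against a floor of 3 counts. Prune2 had 0 and 34 UMIs, at least 7.16-fold higher on the same floor. Map2, Lrch2 and Hist1h2bg had 0 UMIs in WT IgG and 21, 21 and 20 in KO IgG. Edil3, an integrin ligand, went from 4 to 81 UMIs (ratio 12.8; second pair 4.54). For the neuropeptide gene Nts (6 and 113 UMIs, ratio 11.9) and the linker histone Hist1h1b (21 and 219 UMIs, ratio 6.59) the second pair gave 1.29 and 1.69. Both came largely from 1 sub-cluster of KO IgG. Nts had 0 and 108 UMIs in sub-cluster 7, but 6 and 2 in sub-cluster 6. Hist1h1b had 20 and 197 UMIs in the mitotic sub-cluster 10, where its ratio was 2.07. Ptgds, a prostaglandin D synthase (12 and 123 UMIs), and Rasgrp3 (7 and 74 UMIs) had ratios of 6.48 and 6.68 but 0.908 and 0.908 in the second pair. Of the 15 genes named as higher, 10 could be measured in the second pair, 8 lay above 1 and 5 were at least 2-fold higher.

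The genes most clearly lower in KO IgG tumour cells were secretory and gut-type epithelial genes, and they came largely from few cells. Lgals4, an intestinal galectin, had 1483 and 38 UMIs (ratio 0.0162 (0.0114 to 0.0223)), and 1287 of the 1483 lay in the 18 WT IgG cells of sub-cluster 0. Over the 15 genes named as lower, a median of 85.5% of the WT IgG UMIs (46.4% to 96.9%) lay in that sub-cluster, which held 37.4% of the UMIs of the class. Akr1b7 (179 and 2 UMIs), Tm4sf20 (159 and 10 UMIs), Eps8l3 (71 and 2 UMIs), Sptssb (142 and 10 UMIs) and the apolipoprotein Apoa1 (104 and 9 UMIs) had the same form. In the anti-PD-1 pair these went the other way, with ratios of 2.15 for Lgals4, 2.96 for Akr1b7, 4.54 for Tm4sf20, 1.68 for Eps8l3, 1.44 for Sptssb and 1.49 for Apoa1. Gjb1, a gap junction connexin (55 and 0 UMIs), and Phgr1 (46 and 0 UMIs) had no UMI in KO IgG, at least 29-fold and 24.3-fold lower, while the second pair had 1.13 and 32.9.

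A smaller group of epithelial genes was lower in both pairs. Of the 15 genes named as lower, 12 could be measured in the second pair, and 4 of these lay below 1, each at least 2-fold lower. Ttr, the thyroxine carrier transthyretin, had 1089 and 71 UMIs, a ratio of 0.0412 (0.0319 to 0.0524), and 0.141 in the second pair; 827 of its WT IgG UMIs were in sub-cluster 0. The airway mucin Muc5b had 209 and 16 UMIs (ratio 0.0484; second pair 0.0981), but 192 of the 209 lay in sub-cluster 0, and without sub-clusters 0, 7 and 10 its log2 ratio was -0.19, no longer past 2-fold. Crisp1 (75 and 2 UMIs) and Cyp2c68 (65 and 4 UMIs) had ratios of 0.0168 and 0.0389 and second-pair ratios of 0.31 and 0.295. Entpd2, an ecto-nucleotidase, had 28 and 0 UMIs here and 16 and 0 in the anti-PD-1 libraries. Tspan1 (55 and 3 UMIs) had 0.0345 and 0.635, the latter from under 20 UMIs, and Muc5ac had 32 and 1 UMIs. Of a list of 20 measured gut-lineage genes 16 were at least 1.5-fold lower and 0 higher, where 14.1% of all genes were lower and 17.1% higher. Its median log2 ratio was -1.23, -0.58 with sub-clusters 0, 7 and 10 left out, and -0.26 in the anti-PD-1 pair, against 0.05 over all genes.

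**Figure D2:**
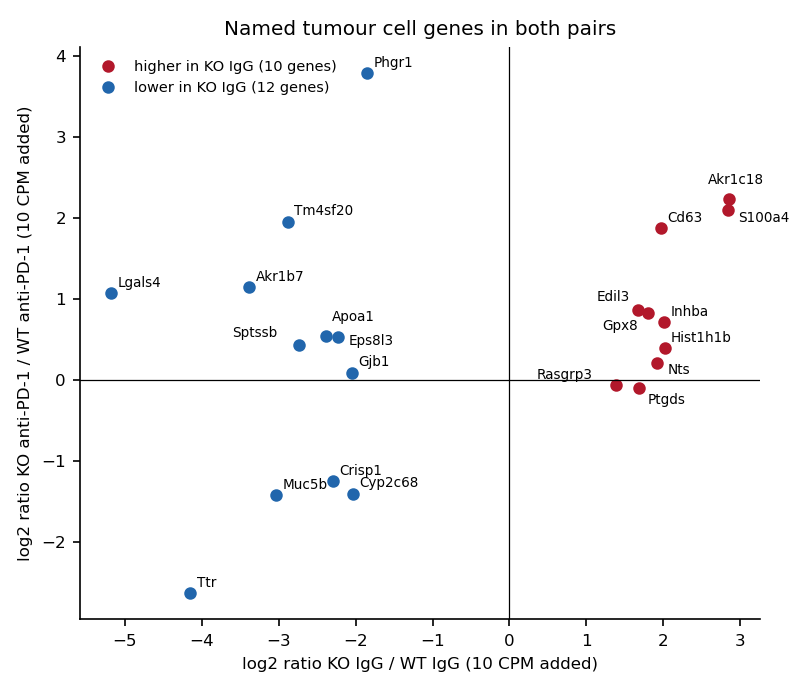
Log2 ratio of KO to WT in tumour cells (10 CPM added) in the IgG pair (horizontal axis) and the anti-PD-1 pair (vertical axis) for the 22 named genes measured in both, red where higher and blue where lower in KO IgG. S100a4, Cd63 and Akr1c18 lie above 0 on both axes, whereas Lgals4, Akr1b7 and Phgr1 lie below 0 in the IgG pair and above 0 in the anti-PD-1 pair.

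RNA of the MHC class I chains H2-K1, H2-D1 and B2m was lower in KO IgG tumour cells and also within their sub-clusters. H2-K1, a class I heavy chain, stood at 195 CPM in WT IgG and 53.8 CPM in KO IgG (343 and 150 UMIs), a ratio of 0.276 (0.227 to 0.336), and H2-D1 at 554 CPM in WT IgG and 264 CPM in KO IgG, a ratio of 0.476 (0.432 to 0.524). H2-K1 was lower in 4 of 4 sub-clusters where it had 20 UMIs (0.210 to 0.465), and H2-D1 in 5 of 5 (0.339 to 0.865). B2m, the class I light chain, was lower in 5 of 5 sub-clusters (0.444 to 0.885) and the peptide-loading chaperone Calr in 5 of 5 (0.51 to 0.76). The wider list was less even: over the 5 sub-clusters, 42 of 51 values of class I list members with at least 20 UMIs were below 1 (82.4%), against 50.9% for all genes. Values above 1 included the proteasome activator Psme1, at 1.35 and 1.46 in sub-clusters 1 and 5, and the folding chaperone Canx, at 1.39 in sub-cluster 10. The heavy chain H2-T23 had 1.34 in sub-cluster 6 and was below 1 in 2 of the 3 sub-clusters where it had 20 UMIs. In the anti-PD-1 pair H2-K1 had 0.765 but H2-D1 1.34. Of 17 measured class I genes 12 were at least 1.5-fold lower and 0 higher (14.1% and 17.1% of all genes), with a median log2 ratio of -0.51, -0.49 without sub-clusters 0, 7 and 10, and -0.32 in the anti-PD-1 pair.

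**Figure D3:**
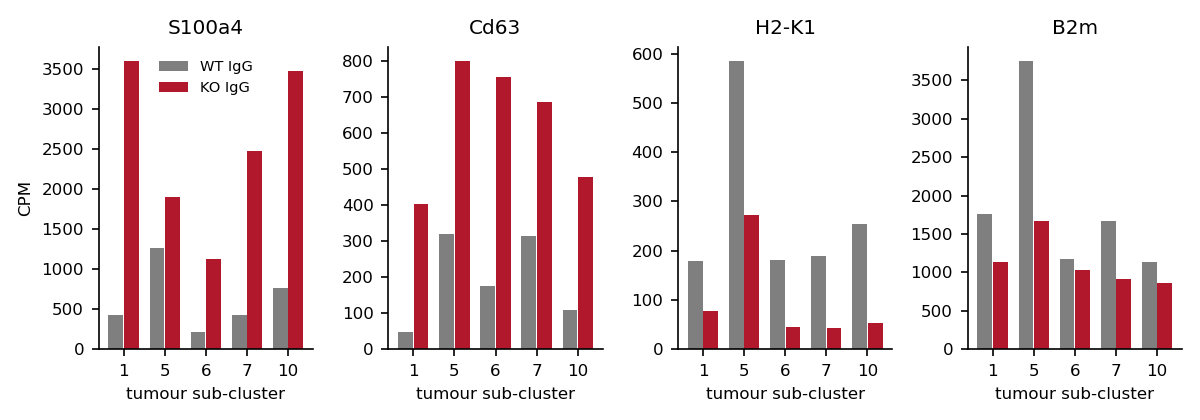
CPM of S100a4, Cd63, H2-K1 and B2m (linear axes from 0) in the 5 tumour sub-clusters with at least 5 cells in each library, for WT IgG (grey) and KO IgG (red); each bar is 1 sum over cells, with no replicate. S100a4 and Cd63 are higher, and H2-K1 and B2m lower, in KO IgG in every one of these sub-clusters, though H2-K1 had few UMIs in sub-cluster 1.

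Interferon-gamma response genes were lower in the same cells. Of 14 measured members 12 were at least 1.5-fold lower and 0 higher (14.1% and 17.1% of all genes). The median log2 ratio was -0.66, or -0.65 without sub-clusters 0, 7 and 10, a setting that keeps the shallow sub-clusters 1 and 5 beside sub-cluster 6. Wars, a tRNA synthetase induced by interferon-gamma, had 137 and 87 UMIs (ratio 0.401 (0.303 to 0.529); second pair 0.578). Irf1, a transcription factor induced by interferon, had 56 and 46 UMIs (ratio 0.519). The immunoproteasome subunit Psmb10 stood at 160.0 CPM in WT IgG and 85 CPM in KO IgG (ratio 0.531). It was lower in 3 of 3 sub-clusters where it had 20 UMIs. On the same condition Wars was lower in 3 of 3. The list member Irgm1 was lower in only 1 of 3, with 1.44 and 1.40 in sub-clusters 6 and 7. The anti-PD-1 pair gave a list median of -0.19, with 0.774 for Psmb10 and 0.677 for Irf1.

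Part of the proliferation genes were higher in KO IgG tumour cells, beside the larger number of cells in the mitotic sub-cluster. Among 26 proliferation genes, 13 stood at least 1.5-fold higher and 0 lower (17.1% and 14.1% of all genes), with a median log2 ratio of 0.36 and 0.39 in the anti-PD-1 pair; without sub-clusters 0, 7 and 10 the median was 0.04. Mcm3 and Mcm7, subunits of the replicative helicase, had 40 and 159 UMIs and 48 and 174 UMIs, ratios of 2.51 and 2.29, and second-pair ratios of 0.821 and 1.2. Cdk1, the kinase that drives entry into mitosis, had a ratio of 0.726 and 2.22 in the second pair. Inside the mitotic sub-cluster, with 5 WT IgG and 46 KO IgG cells, 19 of the 26 were below 1 (73.1%, against 49.0% of all genes there). Among them were Top2a (0.631), Ccnb1 (0.404), Ube2c (0.317) and Plk1 (0.269), while Mcm3 (3.75) and Mcm7 (1.72) were above 1. Past 1.5-fold, 8 of 23 histone chaperone genes stood higher and 2 lower (median 0.36; second pair -0.20). Chaf1a, the large subunit of CAF-1 and a partner of Asf1a, had 6 and 43 UMIs (ratio 4.53 (1.92 to 13); second pair 1.23). Nasp, a histone H3-H4 carrier, had 80 and 240 UMIs (ratio 1.9; second pair 0.99). Atrx, which places histone H3.3 in heterochromatin, was lower, at 181 CPM in WT IgG and 116 CPM in KO IgG, a ratio of 0.64 (0.546 to 0.749) and 0.249 in the second pair.

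Other tumour lists differed between the pairs or with the mix. Their counts are of members at least 1.5-fold higher or lower, beside 17.1% of all genes higher and 14.1% lower. Hypoxia and glycolysis genes had a median log2 ratio of -0.36 (0 higher and 8 lower of 20), with the glycolytic enzyme Pgk1 at 1942 and 1525 UMIs and a ratio of 0.496; the second pair had a list median of 0.42 and 1.00 for Pgk1. Immediate-early and heat-shock genes had a median of -0.56 (2 higher and 12 lower of 24; second pair -0.12). Among them Fos was lower (2282 and 1063 UMIs, ratio 0.294; second pair 0.94) and Fosl1, another subunit of AP-1, higher (21 and 130 UMIs, ratio 3.91; second pair 1.31). The glutathione transferase Gsta4 had 967 and 436 UMIs (ratio 0.285; second pair 0.651), in an NRF2 and glutathione list with 8 of 17 members lower and 1 higher. Epithelial-mesenchymal genes had a median of 0.32 (7 higher and 1 lower of 21), led by the fibronectin receptor chain Itga5 (28 and 137 UMIs, ratio 3.09; second pair 2.15), but -0.07 without sub-clusters 0, 7 and 10. The cell-cycle inhibitors Cdkn1a (66 and 246 UMIs) and Cdkn2a (883 and 2368 UMIs) had ratios of 2.35 and 1.69.

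Ligands of the neutrophil receptor Cxcr2 were read in tumour cells because neutrophils were the most abundant class. Cxcl5 was lower, with 155 and 115 UMIs and a ratio of 0.469 (0.728 in the second pair). Cxcl2 was higher, with 139 and 322 UMIs and a ratio of 1.46 (2.17 in the second pair), and Cxcl1 had 0.663 and 0.687. The ligands thus did not share a direction.

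Neutrophils of KO IgG had more RNA of Wfdc17, Chil3 and Ifitm1 and less of interferon-response genes, and the anti-PD-1 pair had the same side for these 3 genes and for the interferon lists. At least 2-fold higher were 129 of 8298 genes (1.55%) and at least 2-fold lower 210 (2.53%). Wfdc17, a secreted whey-acidic-protein-type protein of activated myeloid cells, stood at 2059 CPM in WT IgG and 10792 CPM in KO IgG, a ratio of 5.24 (5.09 to 5.4) and 5.75 in the anti-PD-1 pair. It was higher in each of the 3 main neutrophil clusters (4.24, 4.56 and 2.46, and 4.72, 4.61 and 2.48 in the second pair). Chil3, a chitinase-like protein of less mature neutrophils and of macrophages, had 403 and 1352 UMIs (ratio 3.24; second pair 5.43), with 6.14, 6.45 and 3.68 in the 3 clusters. The interferon-induced membrane protein Ifitm1 had 2682 and 7177 UMIs (ratio 2.58; second pair 2.55), on the other side from the interferon-response genes below. Granule and recirculation genes past 1.5-fold numbered 5 of 26 on the higher side and 0 on the lower (6% and 10.4% of all genes), with a median log2 ratio of 0.19 and 0.33 in the second pair. Among neutrophil-secreted proteins, Retnlg and Wfdc21 had ratios of 1.69 and 1.98 and second-pair ratios of 1.86 and 2.26. The protease inhibitor Stfa1 had 2.6 and 2.26, and S100a9, the main cytosolic protein of neutrophils, 0.863.

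Of 23 measured interferon-gamma response genes in neutrophils 17 were at least 1.5-fold lower and 0 higher, where 10.4% of all genes were lower and 6% higher. The median log2 ratio was -0.60 in the IgG pair and -0.53 in the anti-PD-1 pair, against -0.05 over all genes. Cxcl10, a ligand of Cxcr3, a chemokine receptor of T cells, stood at 256 CPM in WT IgG and 54.7 CPM in KO IgG (659 and 146 UMIs), a ratio of 0.214 (0.177 to 0.256), and 0.37 in the second pair. The guanylate-binding proteins Gbp2 and Gbp5 had ratios of 0.495 and 0.378 (0.506 and 0.347), and the related GTPase Igtp 0.448 (0.555). Rsad2, the antiviral protein viperin and a type I interferon gene, had 263 and 106 UMIs (ratio 0.389; second pair 0.548).

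The neutrophil clusters were mixed differently: cluster 0 was 35.8% of WT IgG neutrophils and 48.5% of KO IgG neutrophils, cluster 3 21.5% and 16.6%, and cluster 4 38.2% and 30.5%. Inside cluster 3 the interferon-gamma list median was -0.94, with 16 of 17 members at least 1.5-fold lower and 0 higher (14.1% and 10.8% of all genes there), and -0.62 in the second pair. Inside cluster 4 it was -0.48 (8 of 16 lower and 0 higher, 8.29% and 9.33% of all genes there; second pair -0.42). Inside cluster 0 it was -0.39 (6 of 16 lower and 2 higher, 9.1% and 11.7% of all genes there; second pair -0.01). Cxcl10 was lower in each of the 3 clusters, at 0.314, 0.211 and 0.382 in clusters 0, 3 and 4, whereas Gbp2 had 1.07, 0.494 and 0.508. Outside these lists, the orphan nuclear receptor Nr4a2 was lower (317 and 118 UMIs, ratio 0.359; second pair 0.573), and Trim30c had 27 and 4 UMIs (second pair 0.307). The heat-shock gene Hspa1a had 0.342 here and 1.68 in the second pair.

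The interferon-gamma list was lower across the myeloid classes as well as in tumour cells. The median log2 ratio was -0.42 in monocytes and macrophages (14 of 25 measured members at least 1.5-fold lower, 0 higher; 5.41% of all genes lower), -0.29 in conventional DCs (7 of 23 lower, 1 higher; 7.36% of all genes lower and 8.76% higher) and -0.26 in migratory DCs (7 of 17 lower, 1 higher; 10.4% of all genes lower and 12% higher). In lymphoid classes it was -0.20 in T cells (4 of 25 lower, 0 higher; 5.71% of all genes lower and 8.45% higher), -0.13 in NK cells (4 of 20 lower, 3 higher; 8.56% of all genes lower and 12.5% higher) and -0.39 in B cells (6 of 16 lower, 0 higher; 10.2% of all genes lower and 13.5% higher). The anti-PD-1 pair gave -0.27, -0.33, -0.19, -0.19, 0.07 and 0.16 in these classes, in the same order. Of these, NK and B cells were the classes where the second pair had the other sign. Type I interferon genes had medians of -0.37 in monocytes and macrophages, -0.37 in neutrophils and -0.28 in conventional DCs, with -0.22, -0.34 and -0.50 in the second pair, and -0.31 in tumour cells with 0.01.

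**Figure D4:**
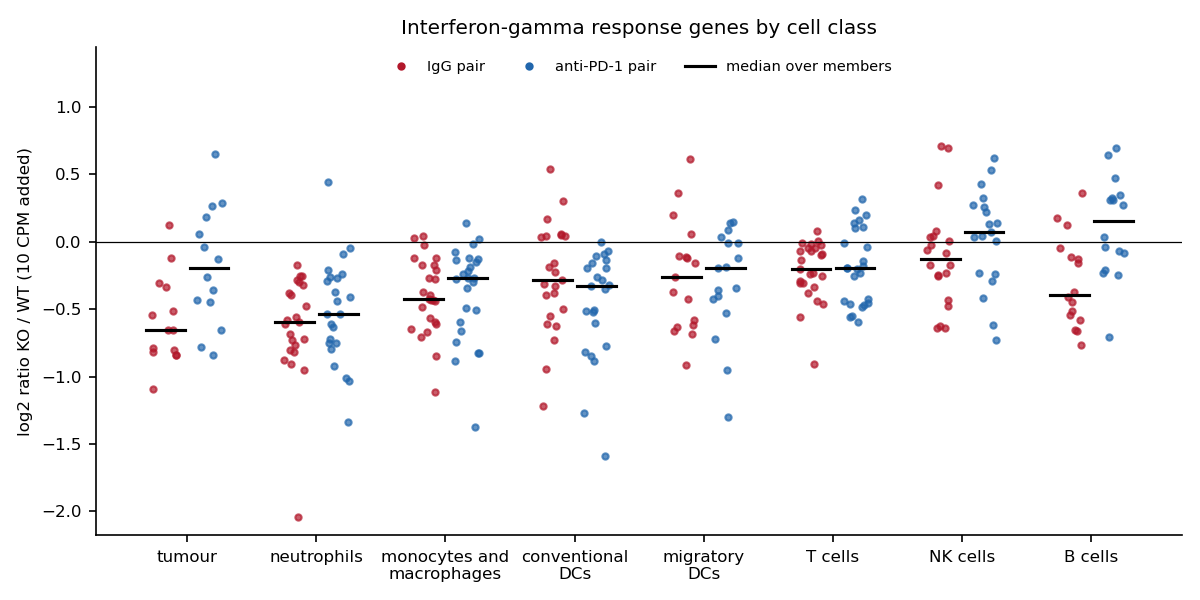
Log2 ratio of KO to WT (10 CPM added) for interferon-gamma response genes in 8 cell classes, in the IgG pair (red) and, for the same genes where measured, the anti-PD-1 pair (blue); each point is 1 gene with at least 20 UMIs and each bar a median. The IgG medians run from -0.66 in tumour cells and -0.60 in neutrophils to -0.13 in NK cells.

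Upstream sequences of 4 of these genes are shown because Cxcl10, Gbp2, Rsad2 and Irf1 are textbook targets of the interferon factors and were lower in KO IgG in the classes above. Capitals mark the match to the ISRE-type motif, spelled GAAA, any 2 bases, GAAA, the element read by interferon regulatory factors, in the first 3, and to the GAS-type motif TTCNNNGAA, the interferon-gamma-activated site, in Irf1. Both strands were searched, so a match on the other strand appears as its reverse complement. The sequences are the 250 bases before each gene's start from RefSeq on GRCm38.p6, 5′ to 3′ in the direction of the gene. They are chr5:92348890-92349139 (minus strand), chr3:142620413-142620662 (plus), chr12:26456453-26456702 (minus) and chr11:53769764-53770013 (plus).
Cxcl10: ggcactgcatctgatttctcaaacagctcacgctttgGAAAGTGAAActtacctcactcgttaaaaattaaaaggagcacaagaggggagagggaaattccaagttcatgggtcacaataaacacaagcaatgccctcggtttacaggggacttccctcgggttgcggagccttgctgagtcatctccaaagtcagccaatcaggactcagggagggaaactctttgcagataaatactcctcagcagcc
Gbp2: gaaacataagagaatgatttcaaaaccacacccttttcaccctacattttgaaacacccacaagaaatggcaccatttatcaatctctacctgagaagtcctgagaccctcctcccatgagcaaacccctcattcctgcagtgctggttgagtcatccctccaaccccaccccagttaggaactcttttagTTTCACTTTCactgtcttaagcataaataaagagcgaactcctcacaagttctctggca
Rsad2: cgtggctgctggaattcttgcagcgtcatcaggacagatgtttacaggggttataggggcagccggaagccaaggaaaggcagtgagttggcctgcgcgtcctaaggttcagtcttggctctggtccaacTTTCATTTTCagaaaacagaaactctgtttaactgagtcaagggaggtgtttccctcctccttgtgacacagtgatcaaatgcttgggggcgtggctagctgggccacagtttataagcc
Irf1: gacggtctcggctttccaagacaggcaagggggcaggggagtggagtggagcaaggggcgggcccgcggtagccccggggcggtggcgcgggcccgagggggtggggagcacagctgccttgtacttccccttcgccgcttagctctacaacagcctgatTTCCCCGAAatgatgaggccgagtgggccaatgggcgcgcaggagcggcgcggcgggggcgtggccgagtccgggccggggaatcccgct
The match lies 213 to 204 bases before the start of Cxcl10, 59 to 50 before Gbp2, 120 to 111 before Rsad2 and 90 to 82 before Irf1. Of the 28 listed interferon-gamma genes 19 had a sequence; 11 of those (57.9%) held the ISRE-type motif, against 3.46% of all 27025 genes, and 9 (47.4%) the GAS-type motif, against 8.13%. Of 20 class I genes with a sequence 3 (15%) held the ISRE-type motif and 2 (10%) the GAS-type motif. A match describes letters only and says nothing on binding in these cells.

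Monocytes and macrophages of KO IgG had more chemokine Ccl17 and chitinase-like RNA and less complement C1q. At least 2-fold higher were 127 of 10039 genes (1.27%) and at least 2-fold lower 173 (1.72%). Ccl17, a ligand of the receptor Ccr4 on regulatory and helper T cells, stood at 35.4 CPM in WT IgG and 216 CPM in KO IgG (196 and 1036 UMIs), a ratio of 6.1 (5.23 to 7.15) and 4.7 in the second pair. The ratio was 11.4 in cluster 8 and 1.18 in cluster 6, and 3.04 in cluster 6 of the second pair. Chil3 had 3705 and 7977 UMIs (ratio 2.49; second pair 3.28) and was higher in the same 3 clusters, at 3.78, 2.82 and 1.89. The secreted myeloid genes Retnlg and Retnla had ratios of 2.74 and 4.31 and second-pair ratios of 2.72 and 1.79. Retnlg and Wfdc21 (2.74; second pair 6.12) are neutrophil genes, and their part from free neutrophil RNA was not tested.

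Several genes were higher in the IgG pair and not in the anti-PD-1 pair. The elastase Mmp12 had 1366 and 3477 UMIs (ratio 2.94; second pair 0.979), the osteopontin gene Spp1 6121 and 8857 UMIs (1.67; 0.73) and the cytokine Tnf 46 and 92 UMIs (2.31; 0.568). The phosphatase Plpp3 had ratios of 3.19 and 0.762. Bex1 had 27 and 260 UMIs (ratio 11.1; second pair 0.563). Lipid-associated macrophage genes had a median log2 ratio of 0.31 (4 of 23 at least 1.5-fold higher and 0 lower; 5.52% of all genes were higher), and -0.08 in the second pair. Mmp12 was higher in clusters 6, 8 and 17 of the IgG pair, at 3.13, 1.9 and 2.76.

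C1qa, C1qb and C1qc, which encode the chains of the complement recogniser C1q and mark resident-type macrophages, were lower together. C1qa stood at 1136 CPM in WT IgG and 626 CPM in KO IgG, a ratio of 0.551 (0.527 to 0.576), C1qb had 0.645 and C1qc 0.603; the second pair gave 0.701, 0.792 and 0.735. C1qa was lower inside cluster 6 (0.651) and cluster 8 (0.445), which held nearly all of its UMIs. Of 19 measured C1q and phagocytosis genes 9 were at least 1.5-fold lower and 0 higher (median -0.37; second pair -0.21; 5.41% of all genes lower and 5.52% higher). The list median was -0.23 in cluster 6 and -0.50 in cluster 8. In cluster 17, where C1qa had 12 and 17 UMIs, it was on the other side at 0.52, with 8 of 14 members at least 1.5-fold higher and 0 lower (10.3% and 7.29% of all genes there), and 0.55 in the second pair. Lyve1, a hyaluronan receptor of vessel-side macrophages, had 24 and 2 UMIs and 0.149 in the second pair. Apoe, another abundant macrophage gene, had a ratio of 0.997, and Irf8, a factor of monocyte and DC development, 1.02.

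Chemokine and interferon genes were lower in the same class. Gbp2 had 402 and 135 UMIs (ratio 0.388; second pair 0.539) and was lower in clusters 6, 8 and 17. Cxcl9 and Cxcl10, which attract Cxcr3-bearing T cells, had 384 and 201 UMIs and 441 and 223 UMIs, ratios of 0.604 and 0.584, and second-pair ratios of 0.358 and 0.638. The list median inside clusters 6, 8 and 17 was -0.37, -0.58 and -0.43 (second pair -0.24, -0.42 and -0.15). Ly6i, a Ly6-family surface protein of monocytes, had 0.351 (0.542). Ccl8 (848 and 64 UMIs, ratio 0.0871), Col14a1 (47 and 5 UMIs, 0.123), Ccl5 (1061 and 348 UMIs, 0.379) and Ccr7 (0.286) were lower here, but had 0.841, 0.746, 1.35 and 1.62 in the second pair. Trbc2, a T cell receptor chain, had 173 and 53 UMIs in this class, and summed T cell markers stood at 123.7 CPM in WT IgG and 66.5 CPM in KO IgG, beside the values for Ccl5, a gene T cells also express. The part of T cell RNA in them was not tested.

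As shares of T cells, cytotoxic (CD8), activated CD4 and cycling cells were lower in KO IgG, and naive cells and a sub-cluster with Ly49 receptor genes higher. Of all cells, naive T cells were 12.5% in WT IgG and 7.99% in KO IgG (ratio 0.640, 0.568 to 0.720), and the Ly49 sub-cluster held 139 cells of WT IgG and 136 of KO IgG. CD8 cells formed 16.8% of the T cells of WT IgG and 11.7% of those of KO IgG, a ratio of 0.692 (0.552 to 0.862), and 0.761 (0.664 to 0.870) in the anti-PD-1 pair. CD4 cells had a ratio of 0.706 (0.555 to 0.893) and cycling cells 0.446 (0.258 to 0.738), with 1.60 and 1.48 in the anti-PD-1 pair. Regulatory T cells were 7.17% and 8.11% (ratio 1.13, 0.841 to 1.51; second pair 1.46). The Ly49 sub-cluster, left unnamed, was 8.30% and 13.8% (ratio 1.66, 1.30 to 2.12; second pair 1.47). The CD8 class joins 2 sub-clusters on opposite sides: sub-cluster 6 had a ratio of 0.507 (0.381 to 0.666) and 0.434 in the second pair, and the smaller sub-cluster 7 had 1.53 (1.00 to 2.32) and 2.21. The CD4 class joins sub-cluster 3, at 0.860 (0.640 to 1.15), and sub-cluster 4, at 0.487 (0.311 to 0.742). CD8 sub-cluster 6 and the Ly49 sub-cluster each had the same side in both pairs, and the CD4 and cycling classes did not.

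**Figure D5:**
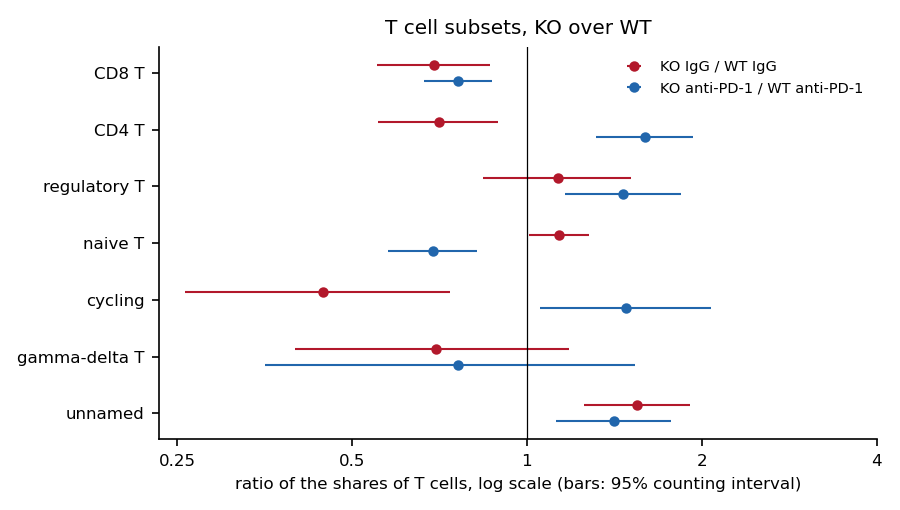
Ratio of the share of T cells in KO to that in WT (log axis) for each T subset, in the IgG pair (red) and the anti-PD-1 pair (blue), with 95% intervals for counting error as bars and a line at 1. CD8 cells lie left of the line in both pairs (0.692 and 0.761), while CD4, naive and cycling cells lie on opposite sides.

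The effector cytokine Ifng was lower in T cells of KO IgG, most of all in CD4 cells. At least 2-fold higher in T cells were 160 of 9612 genes (1.66%) and at least 2-fold lower 189 (1.97%). Ifng had 276 and 26 UMIs, or 58 CPM in WT IgG and 14.2 CPM in KO IgG, a ratio of 0.244 (0.157 to 0.365) and 1.04 in the second pair. In CD4 cells it had 115 and 3 UMIs (ratio 0.0883; second pair 2.14) and in CD8 cells 113 and 11 UMIs (0.344; 0.472). Of these subsets, Ifng was lower in both pairs in CD8 cells. In NK cells, the other main source, Ifng had 66 and 32 UMIs, a ratio of 0.732 (0.464 to 1.13) and 1.01 in the second pair, which counting error does not set apart from 1.

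Granzymes, the proteases of cytotoxic granules, differed by subset. Gzmb had 388 and 71 UMIs in all T cells (ratio 0.474; second pair 1.05) and 128 and 9 UMIs in CD8 cells (0.248; 1.35). Gzma had 971 and 155 UMIs in all T cells (ratio 0.414; second pair 2.03), of which the cycling subset held 586 in WT IgG and 1 in KO IgG. In CD8 cells Gzma was higher, with 284 and 121 UMIs and a ratio of 1.51 (1.75 in the second pair). The CD8 mix differed, since sub-cluster 7 held 51 of 282 CD8 cells in WT IgG and 46 of 115 in KO IgG. Gzma had a ratio of 0.862 (0.613 to 1.19) inside sub-cluster 6 and 3.83 (2.55 to 5.84) inside sub-cluster 7, where 10 and 4 cells of WT IgG and KO IgG had a UMI. The mitosis gene Ube2c had 0.444 over T cells and 0.715 inside the cycling subset, beside the smaller cycling subset. Of 26 proliferation genes in T cells 12 were at least 1.5-fold lower and 0 higher (median -0.31; second pair 0.17; 5.71% of all genes lower and 8.45% higher). The inhibitory receptor Lag3 had 0.607 (1.1) and the residency-linked receptor Cxcr6 0.681 (0.703).

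A pair of Ly49 receptor genes, whose products bind MHC class I on other cells, was higher in KO IgG T cells, beside the larger share of T cells in the sub-cluster that carries them. The list of NK maturation and receptor genes had 6 of 27 members at least 1.5-fold higher and 5 lower in T cells (8.45% and 5.71% of all genes). The list as a whole thus did not share a direction. Klra9 had 37 and 47 UMIs (ratio 3.29; second pair 2.87) and Klra7 had a ratio of 2.0 (2.13). The heat-shock gene Hspa1a had 89 and 91 UMIs (ratio 2.65; second pair 2.46). Wfdc17 (3.13, second pair 2.41) and Wfdc21 (2.65, second pair 5.09) were also higher, and both are genes of myeloid cells. In WT IgG 87.7% of monocytes and macrophages and 42.3% of neutrophils had a UMI of Wfdc17. The abundant neutrophil genes S100a8 and S100a9 had 1.07 and 0.921 in T cells. The part of foreign RNA in these values was not tested. Igfbp7 and Snhg20 had ratios of 2.74 and 2.16, and 1.79 and 1.3 in the second pair. Cxcl10 in T cells had 90 and 10 UMIs (ratio 0.288; second pair 0.75).

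NK cells of KO IgG had less perforin RNA, while the cytotoxic list as a whole had a median log2 ratio of -0.03, with 1 of 20 members at least 1.5-fold higher and 2 lower (12.5% and 8.56% of all genes). At least 2-fold higher were 152 of 6072 genes (2.5%) and at least 2-fold lower 139 (2.29%). Prf1, the pore-forming perforin, stood at 408 CPM in WT IgG and 201 CPM in KO IgG (325 and 106 UMIs), a ratio of 0.492 (0.392 to 0.615) and 0.774 in the second pair. Gzmc, a granzyme of strongly activated NK cells, was higher, with 86 and 191 UMIs and a ratio of 3.35, but 0.579 in the second pair. Gzma and Gzmb had 0.905 and 0.869. Wfdc17 (31 and 189 UMIs, ratio 9.21), Cxcl2 (3.09) and the Fc receptor Fcgr2b (9.66) were higher, beside summed neutrophil markers of 1246 CPM in WT IgG and 2266 CPM in KO IgG and macrophage markers of 496 and 927 CPM. The second pair had 3.18, 1.54 and 1.16 for these genes.

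Conventional DCs of KO IgG had more Ccl17 and less of the interferon-induced chemokine Cxcl9. At least 2-fold higher were 170 of 7991 genes (2.13%) and at least 2-fold lower 186 (2.33%). Ccl17 had 3635 and 6726 UMIs (ratio 1.99 (1.91 to 2.07); second pair 2.13), next to its ratio of 6.1 in monocytes and macrophages. Cxcl9 had 134 and 57 UMIs (ratio 0.457; second pair 0.384), Gbp2 91 and 27 UMIs (0.319; 0.667) and the ubiquitin-like Isg15 0.504 (0.642). The C-type lectin Cd209d had 51 and 162 UMIs (ratio 3.41; second pair 1.12). Of 22 proliferation genes 12 were at least 1.5-fold lower and 0 higher (7.36% and 8.76% of all genes; median -0.46; second pair 0.29), with Pclaf, a PCNA-binding factor, at 219 and 56 UMIs (ratio 0.275; second pair 1.67).

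Migratory DCs of KO IgG had less Il12b, the shared chain of interleukins 12 and 23, which drive interferon-gamma and type 17 responses. Of 5416 genes 197 were at least 2-fold higher (3.64%) and 196 at least 2-fold lower (3.62%). Il12b stood at 317 CPM in WT IgG and 86.5 CPM in KO IgG (323 and 44 UMIs), a ratio of 0.273 (0.195 to 0.375), whereas the second pair had 1.53 (1.19 to 1.96). The chemokine Ccl4 and Apol7c, an apolipoprotein L family gene of DCs, had 0.243 and 0.293, and 1.26 and 1.1 in the second pair. These genes therefore stood on the same side of 1 as each other in each pair, and on opposite sides between the pairs.

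B cells of KO IgG had more RNA of the neutrophil gene S100a8 and less of the kinase Lyn, and plasma cells had more proliferation RNA. In B cells 179 of 5362 genes were at least 2-fold higher (3.34%) and 180 at least 2-fold lower (3.36%). The neutrophil gene S100a8 had a ratio of 3.05 (5.42 in the second pair) beside summed neutrophil markers of 994 and 2564 CPM in WT IgG and KO IgG. Plk3, a stress-induced kinase, had 8 and 22 UMIs, and Lyn, a kinase of B cell receptor signalling, 118 and 19 UMIs (ratio 0.386; second pair 0.947). In plasma cells 321 of 5485 genes were higher (5.85%) and 231 lower (4.21%). Proliferation genes past 1.5-fold numbered 17 of 21 on the higher side and 0 on the lower (17.2% and 9.68% of all genes), with a median of 0.65, but -0.58 in the second pair. Birc5, a mitosis and survival factor, had 5.2 and 0.636.

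A few genes differed in the same direction in many classes of the IgG pair. Over 6 classes (tumour cells, neutrophils, monocytes and macrophages, T, NK and B cells), 7 genes were at least 2-fold higher in at least 4 and 4 genes lower. They were picked by that count after their values were seen, and 4554 genes were measured in all 6. Higher were Chil3, in 6 classes but at 0.131 in conventional DCs, and Clec4e, Cd63, Wfdc17, Wfdc21, Iglc3 and Retnlg, in 4 each. In conventional DCs Chil3 had a UMI in 6.86% of WT IgG cells and 9.80% of KO IgG cells. Lower were Scgb1a1, the secretoglobin of airway club cells, and the immunoglobulin genes Ighg1 and Ighg2b, in 6 each, and Mgp in 4. Scgb1a1 is not a gene of immune cells. In neutrophils it had 299 and 30 UMIs (ratio 0.0968), and 10.7 in the second pair. Mgp was also higher in the second pair, at 3.01 in neutrophils, 4.12 in monocytes and macrophages, 4.95 in T cells and 16.8 in tumour cells. Chil3, Retnlg, Wfdc17 and Wfdc21 are neutrophil or monocyte genes, and their values in lymphocytes stand beside the larger neutrophil share of KO IgG. The neutrophil gene S100a8 had 1.07 in T cells, 1.98 in NK cells and 3.05 in B cells. The source of this RNA was not tested.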

How the data were processed

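Live lung cells were profiled by droplet RNA sequencing in 4 libraries, and 2 of these form the comparison. The deposited values are whole-number counts of UMIs per gene and cell, which the file headers credit to Cell Ranger 3.0.0, with no normalisation and at least 500 UMIs per barcode. The submitters' processing notes name the human build hg19, while all 31053 gene identifiers are mouse Ensembl identifiers, so the build is not established. A barcode list was at hand for 1 library, so barcodes shared between libraries were not counted. Total counts were 22506737 in WT IgG and 17578188 in KO IgG.

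Doublets were scored with Scrublet in scanpy 1.11.5 under Python 3.11.15. Its own limit called 3 cells in KO IgG and 75 in WT IgG, so 1 score limit of 0.25 was used for every library. Cells of the 4 libraries were scaled to 10000 UMIs, and 2000 variable genes and 30 components gave a neighbour graph that was cut by Leiden (igraph 0.11.9) at resolution 1. Clusters were named from marker lists. The naming rule, the doublet limit and the rule for T cell sub-clusters were written after the first clustering had been seen. Members, gene lists and markers were chosen with earlier results of these data known.

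UMIs were summed per class and library. Genes needed 20 UMIs over both libraries, a call is a 2-fold difference in CPM, and list medians use log2 ratios after adding 10 CPM. Ratio intervals are exact conditional 95% intervals and share intervals exact Clopper-Pearson intervals, both for counting error only. With 1 library a side no test was run. The gene scan was tested on simulated counts with known changes.

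Named genes were detected in at least 10 cells, kept 1.5-fold without the top cell of each library, and were ranked by the interval bound nearest to 1. Ribosomal, mitochondrial, receptor-variable, immunoglobulin, haemoglobin, sex-linked and unnamed gene models were left out. The rule takes the first 15 each way in tumour cells, 10 in monocytes and macrophages, T cells and neutrophils, and 4 in other classes, and members of the gene lists may also be named. Alternatives covered scaling, depth, count minimum, doublets, free RNA, clustering and cell limits.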

Additional observations from a re-analysis of the deposited data

Results flagged for a closer look

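A set of results stood on opposite sides of 1 in the IgG pair and the anti-PD-1 pair, in each case with intervals for counting error that did not reach 1. With 1 library per group the difference between the pairs was not tested. In tumour cells Lgals4, Akr1b7 and Tm4sf20 were lower in KO IgG (ratios 0.0162, 0.00706 and 0.0397) and higher in KO anti-PD-1 (2.15, 2.96 and 4.54). Phgr1 had 46 and 0 UMIs in WT IgG and KO IgG and a ratio of 32.9 in the anti-PD-1 pair. These are gut-type epithelial genes, and most of their WT IgG UMIs lay in tumour sub-cluster 0. Lgals4 was also counted in neutrophils, with 23 and 0 UMIs and an anti-PD-1 ratio of 2.54.

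Scgb1a1, the club cell secretoglobin, was lower in the IgG pair and higher in the anti-PD-1 pair in the 9 classes compared. Its ratios in the IgG pair were 0.201 in T cells, 0.0968 in neutrophils, 0.0906 in NK cells, 0.138 in B cells, 0.106 in conventional DCs, 0.125 in migratory DCs, 0.0237 in plasma cells, 0.450 in monocytes and macrophages and 0.25 in tumour cells. The anti-PD-1 ratios in the same order were 13.9, 10.7, 31.0, 7.51, 23.5, 26.7, 24.6, 5.65 and 9.56. The gene is not known as one of immune cells, which make up 8 of the 9 classes.

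In T cells the granzyme Gzma had ratios of 0.414 and 2.03. CD4 cells were a smaller part of T cells in KO IgG (0.706) and a larger part in KO anti-PD-1 (1.60), as were cycling cells (0.446 and 1.48), and naive cells were the other way round (1.13 and 0.690). In conventional DCs the chemokine Cxcl3 had 5.37 and 0.209, and Chil3 had 0.131 and 5.89. The Chil3 value of the IgG pair rests on few cells. Its 402 UMIs in WT IgG came from 6.86% of 175 cells, and its 49 UMIs in KO IgG from 9.80% of cells. Thy1, a T cell surface gene, had 23 and 0 UMIs in B cells of the IgG pair and a ratio of 6.20 in the anti-PD-1 pair.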

How the results depend on the processing

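With at least 500 genes per cell the share ratio of neutrophils turned to 0.820, and those of tumour cells, monocytes and macrophages, T cells and NK cells were 2.84, 1.58, 0.751 and 1.28. Of the 9 class ratios, 7 besides that of neutrophils left their main intervals in this setting and 1 stayed inside. The other 5 settings left 9 of 9 share ratios inside their main intervals. Counts of genes past 2-fold moved most with the count minimum. With at least 50 UMIs they were 286 higher and 325 lower in tumour cells, 36 and 67 in neutrophils, 48 and 55 in monocytes and macrophages, and 46 and 52 in T cells. With at least 1 UMI they were 2524 and 1862, 1905 and 2158, 1715 and 1766, and 1792 and 2257. In tumour cells thinning to 1000 UMIs gave 130 higher and 95 lower genes, and leaving out sub-clusters 0, 7 and 10, a setting chosen after seeing the data, gave 179 and 273. The mean over cells of CPM gave 1146 higher genes in tumour cells and 237 in monocytes and macrophages. In T cells TMM and median-of-ratios scaling each gave 91 higher genes; the cause was not tested. List medians changed sign in tumour cells for lung epithelial (0.036) and tissue residence genes (0.011) at 1 UMI, and for junction and keratin (0.12) and epithelial-mesenchymal genes (-0.067) without sub-clusters 0, 7 and 10. None of 130 named genes changed side in a setting where it could be measured, but calls were lost: 45 of the 55 measurable in thinned cells and 7 of the 10 measurable without sub-clusters 0, 7 and 10 were still past 2-fold. No paired analysis was possible because each group has 1 library.

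Each side is 1 library, so intervals cover counting only and mouse-to-mouse spread is not known. The 101 tumour cells of WT IgG limit every tumour value, and 18 of them held most of the UMIs of the genes named as lower. KO IgG cells were shallower, so shares of cells near the 500 UMI minimum are the least certain. In a whole-lung digest fewer cells of a type and less recovery of that type cannot be told apart.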
